A study of Mus musculus with 6 samples.

Results

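The thioredoxin and peroxiredoxin system of mouse macrophages was described here through 10 genes, taken by name as rows of the deposited expression table, which holds 55335 genes in all. They are the thioredoxins Txn1 and Txn2, thioredoxin reductase Txnrd1, the thioredoxin-binding protein Txnip, sulfiredoxin Srxn1 and the peroxiredoxins Prdx1, Prdx2, Prdx3, Prdx5 and Prdx6. All 10 were found in the table, and all 10 had a mean of at least 1 FPKM, which counts fragments relative to transcript length and library size. RNA came from RAW264.7 cells, a wild-type mouse macrophage line grown from a virus-induced tumour. In 3 libraries the cells had LPS plus ultrasound and in 3 libraries LPS alone. Both groups had 200 ng/ml lipopolysaccharide (LPS), the bacterial cell wall component sensed by TLR4, over 8 h. The ultrasound group also had 10 min of pulsed sound in that time, with an intensity of 50 mW/cm², a frequency of 1 MHz, a duty cycle of 20%, pulses of 200 µs and a repetition rate of 1 kHz. All levels below are thus those of LPS-treated cells of 1 line, and cells without LPS are not analysed here.

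Peroxiredoxins remove hydrogen peroxide by oxidising a cysteine of their own. The resulting disulfide is reduced by thioredoxin, and oxidised thioredoxin is in turn reduced by thioredoxin reductase with NADPH. When peroxide is abundant the peroxiredoxin cysteine is oxidised further to a sulfinic acid, which sulfiredoxin repairs with ATP. Txnip binds reduced thioredoxin and, as a member of the alpha-arrestin family, also promotes uptake of glucose transporters from the cell surface. In macrophages Srxn1, Txnrd1, Prdx1 and Txn1 are known as genes that the transcription factor NRF2 can induce through antioxidant response elements, while Txnip is known as a gene that follows glucose supply.

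The sequences upstream of the start are shown for the 4 members whose ultrasound libraries all lay above the LPS libraries, and for Txnip, whose ultrasound libraries all lay below. Each run is the 250 bases before a RefSeq gene start, from a RefSeq table of build GRCm38.p6, which need not be the build of the deposited values. Capitals mark the core of the antioxidant response element, TGACNNNGC, and the AP-1 motif TGAGTCA, each searched on both strands.
Srxn1, chr2:152105274-152105523, plus strand: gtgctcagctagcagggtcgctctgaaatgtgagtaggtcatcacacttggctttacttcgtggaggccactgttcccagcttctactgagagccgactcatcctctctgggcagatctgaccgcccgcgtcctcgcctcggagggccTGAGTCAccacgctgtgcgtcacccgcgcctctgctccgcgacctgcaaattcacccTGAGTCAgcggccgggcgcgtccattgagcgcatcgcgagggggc
Prdx1, chr4:116685349-116685598, plus strand: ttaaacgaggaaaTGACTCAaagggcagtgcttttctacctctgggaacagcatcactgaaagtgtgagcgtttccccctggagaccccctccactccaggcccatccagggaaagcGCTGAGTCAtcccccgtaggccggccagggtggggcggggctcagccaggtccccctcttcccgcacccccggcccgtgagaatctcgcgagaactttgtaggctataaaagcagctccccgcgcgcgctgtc
Txnrd1, chr10:82858956-82859205, plus strand, the second of its 3 starts: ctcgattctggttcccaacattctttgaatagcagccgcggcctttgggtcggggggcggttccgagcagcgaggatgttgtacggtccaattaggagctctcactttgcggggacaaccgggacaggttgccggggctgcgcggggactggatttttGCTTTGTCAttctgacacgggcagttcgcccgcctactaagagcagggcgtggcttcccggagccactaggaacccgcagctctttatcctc
Txn1, chr4:57956412-57956661, minus strand: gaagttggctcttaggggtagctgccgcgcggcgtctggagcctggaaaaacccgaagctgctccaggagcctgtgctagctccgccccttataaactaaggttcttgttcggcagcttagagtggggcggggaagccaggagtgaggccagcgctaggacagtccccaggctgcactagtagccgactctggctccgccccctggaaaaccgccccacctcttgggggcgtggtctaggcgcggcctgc
Txnip, chr3:96557707-96557956, plus strand: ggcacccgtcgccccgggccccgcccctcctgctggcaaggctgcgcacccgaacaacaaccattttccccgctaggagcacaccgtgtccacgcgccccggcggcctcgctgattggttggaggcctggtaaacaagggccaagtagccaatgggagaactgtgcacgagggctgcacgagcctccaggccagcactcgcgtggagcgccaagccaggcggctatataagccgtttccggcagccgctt
The Srxn1 window holds TGAGTCA at 2 places, with first bases 102 and 45 bases before the start. The nearer one runs on as TGAGTCAGC, which is close to TGACNNNGC but does not match it. The Prdx1 window holds the AP-1 motif with first bases 237 and 131 bases before the start, and the nearer one lies inside GCTGAGTCA, which is TGACNNNGC read on the other strand. The Txnrd1 window holds GCTTTGTCA, also TGACNNNGC on the other strand, with its first base 92 bases before the start. Neither motif matched in the windows of Txn1 and Txnip, nor in the windows at the other 2 Txnrd1 starts. The table had 11 windows for 9 of the members and none for Prdx6. Of these 11 windows, 2 held the antioxidant core, against 10.2% of 32851 windows of the same length over all genes. Likewise 2 held TGAGTCA, against 4.46%, and 0 held the E-box CACGTG, against 6.02%. All 3 motifs were searched by these exact letters, so variant forms, also of the E-box in the Txnip window, were not counted. A match is a run of letters and does not show binding, and 250 bases leave out more distant elements.

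The libraries carried macrophage transcripts, which was checked because the extraction text of the submitters speaks of rat muscle. Of 11 macrophage markers, 10 passed the same 1 FPKM mean, and the highest, Fcer1g, averaged 896 ± 63.5 FPKM in ultrasound libraries and 902 ± 68.3 in LPS libraries (SD, n = 3 each). The summed macrophage markers ran from 2609 to 2869 FPKM in ultrasound libraries and from 2541 to 2795 in LPS libraries. Single macrophage markers were less even: 6 of the 10 were higher and 4 lower, with a median of 0.07. With limma and Benjamini-Hochberg adjustment 0 passed, while 1 had an unadjusted limma p below 0.05, against 15.3% of all genes tested. That one, Adgre1, had 14.1, 14.5 and 17.8 FPKM in ultrasound libraries, against 16.9, 32.9 and 25.4 FPKM in LPS libraries, a difference of -0.62 ± 0.22 on the log2(FPKM + 1) scale. Itgam (-0.64 ± 0.31) and Csf1r (0.52 ± 0.32) did not reach that p in this fit, and the difference of Txnip, described below, was -0.66 on the same scale. With the replicate number as a block Csf1r did reach it, though not after adjustment (limma, Benjamini-Hochberg adjusted p = 0.060). Its same-numbered libraries differed by 0.53, 0.68 and 0.37. The groups of Adgre1, Itgam and Csf1r, which were singled out after their values were seen, overlapped. The part of such marker differences in the results below was not tested. Of 12 skeletal muscle markers, 1 passed 1 FPKM, Tnni2, at 26.8 ± 2.22 FPKM in ultrasound libraries and 30.0 ± 1.43 in LPS libraries, and 4 were at 0 in every library. Of 6 fibroblast markers 0 passed. LPS library 2 stood apart, at 28.8 on the first principal component of the tested genes (41.9% of the variance), with the ultrasound libraries from -17.7 to -0.957 and the other LPS libraries at 1.73 and 2.03. Values without it are given where it moves a result. Nothing in the labels tells whether a group holds separate cultures, so each p below reflects only the spread among these libraries, possibly a technical one.

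In LPS plus ultrasound the mRNAs of sulfiredoxin, Prdx1, Txnrd1 and Txn1 lay above those of LPS alone in every library, and that of Txnip lay below. Srxn1 averaged 2.14 times its LPS level, Prdx1 1.61 times, Txnrd1 1.28 times and Txn1 1.17 times, while Txnip averaged 0.634 times. The other 5 members, Prdx2, Prdx3, Prdx5, Prdx6 and Txn2, had overlapping groups and means within 7% of each other. Groups that did not overlap were found for 4 of 10 members in the higher direction, against 9.8% of the 11270 genes tested, and for 1 of 10 in the lower direction, against 13.4%. None of these differences passed when adjusted over all genes tested. With limma on log2(FPKM + 1) and Benjamini-Hochberg adjustment, 0 of 10 members passed 0.05, where 2 of all genes (0.0177%), Krcc1 and the overlapping Mir8112, did. At an unadjusted limma p below 0.05 there were 5 of 10 members, against 15.3% of all genes: 4 were higher, against 6.18%, and 1 was lower, against 9.16%. Same-numbered libraries gave the same sign in all 3 pairs for 6 members in the higher direction, against 24.3%, and for 1 in the lower direction, against 30.9%. With array weights 1 member passed, Srxn1, against 1.98% of all genes in that fit (0.63% higher and 1.35% lower), and with the replicate number as a block 1 member passed, Txnip, against 0.115% of all genes in that fit. The median difference of log2(FPKM + 1) was 0.08 over the members, 6 higher and 4 lower, and -0.02 over all genes tested, of which 46.1% were higher. The members were chosen with earlier results of these data known, so these shares describe them and test nothing.

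**Figure D1:**
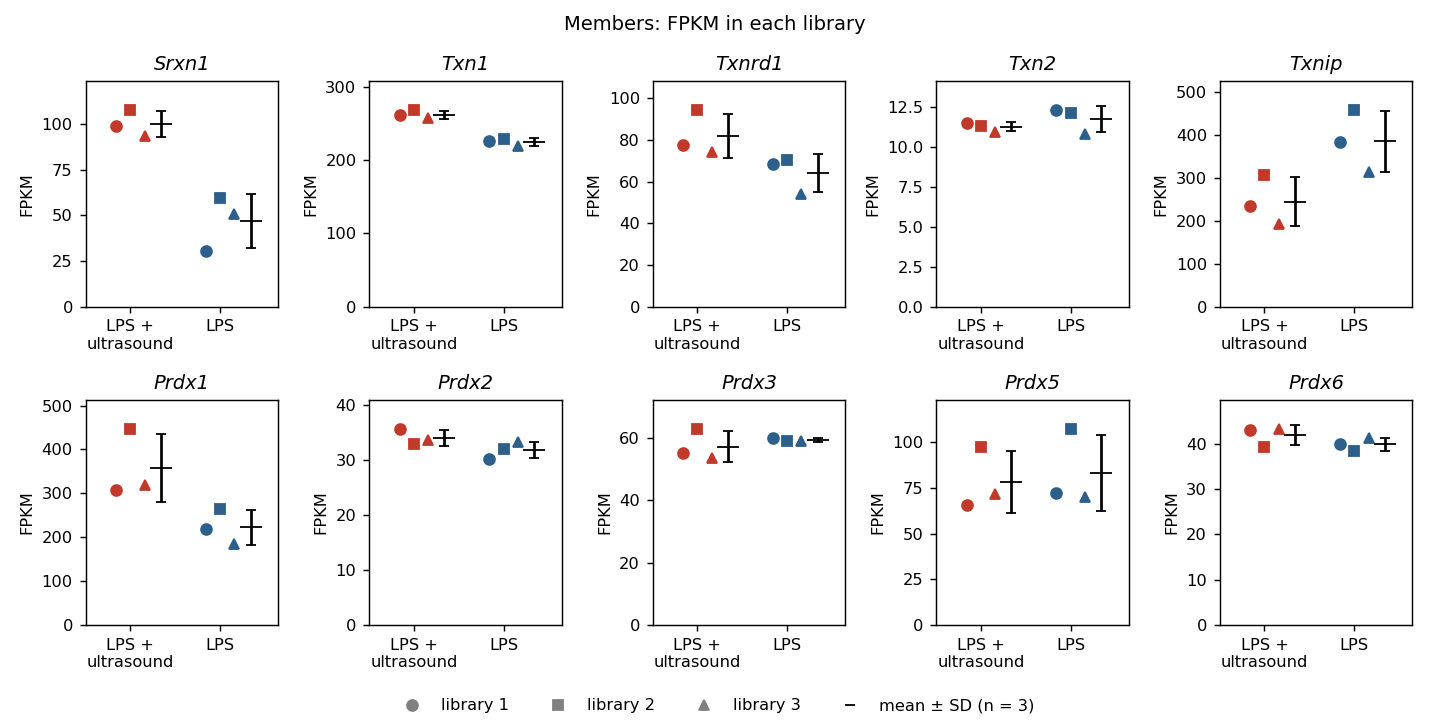
FPKM of the 10 members in each of the 3 LPS plus ultrasound libraries (red, left) and the 3 LPS libraries (blue, right), with marker shape giving the library number and the black bar the mean ± SD; every axis starts at 0. Srxn1, Txn1, Txnrd1 and Prdx1 have all red points above all blue ones, Txnip has them all below, and the other panels overlap.

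Sulfiredoxin, the enzyme that returns hyperoxidised peroxiredoxins to the cycle, had the largest difference of the 10. Srxn1 (ENSMUSG00000032802) had 99.1, 108 and 93.5 FPKM in ultrasound libraries 1 to 3, against 30.2, 59.4 and 50.9 FPKM in LPS libraries 1 to 3. The ultrasound libraries lay close together, the LPS libraries were spread over nearly a doubling, and a gap of 34.1 FPKM separated the groups. The means were 100.1 ± 7.13 and 46.9 ± 15.0 FPKM (SD, n = 3 each), a difference of 1.13 ± 0.23 on the log2(FPKM + 1) scale with a 95% interval of 0.60 to 1.66. It ranked 20 from the top among 11270 genes by this difference and 97 by p. It did not pass over all genes (limma, Benjamini-Hochberg adjusted p = 0.17, or 0.075 under the block), and with array weights it did, at a difference of 1.28 (limma, Benjamini-Hochberg adjusted p = 0.035). LPS library 1 was its lowest library, and without that library the difference was 0.85.

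Among the peroxiredoxins the abundant cytosolic member Prdx1 differed most, and for the other 4 the groups overlapped. Prdx1 (ENSMUSG00000028691), a 2-Cys enzyme that thioredoxin reduces, had 308, 447 and 319 FPKM in ultrasound libraries 1 to 3, against 219, 265 and 185 FPKM in LPS libraries 1 to 3. Library 2 was the highest of both groups, and the lowest ultrasound library lay 43.3 FPKM above the highest LPS library. The means were 358 ± 77.3 and 223 ± 40.2 FPKM, a difference of 0.68 ± 0.18 with a 95% interval of 0.26 to 1.10 (limma, Benjamini-Hochberg adjusted p = 0.21, or 0.058 under the block). It ranked 72 from the top by difference. The 2 annotated copies Gm21399 and Gm7204, align to Prdx1 transcripts over 597 bases at 98.4% and 98.1% identity, so reads can be divided between them. Gm21399 had 6.77 ± 1.84 FPKM in ultrasound libraries and 4.54 ± 1.52 in LPS libraries, and Gm7204 had 1.20 ± 0.587 and 0.822 ± 0.438. Only matches of at least 500 bases were added to Prdx1, so Sec23b was left out. Adding Gm21399 and Gm7204 gave 366 ± 79.5 FPKM in ultrasound libraries and 228 ± 42.1 in LPS libraries. The ratio was 1.60, beside 1.61 for Prdx1 alone.

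Prdx2 (ENSMUSG00000005161), the second cytosolic 2-Cys member, had 35.6, 32.8 and 33.6 FPKM in ultrasound libraries, against 30.2, 31.9 and 33.2 FPKM in LPS libraries. The groups overlapped and the difference was 0.09 ± 0.07, with a 95% interval of -0.07 to 0.26, and it became 0.06 without ultrasound library 1 or LPS library 1. In the GENCODE M21 annotation 350 exonic bases of Prdx2 are shared with Rnaseh2a and Junb on the opposite strand, and Junb, an AP-1 subunit gene, lay at 223 ± 14.9 FPKM in ultrasound libraries and 255 ± 34.9 in LPS libraries. Whether counting used strand is not given in the sources used here, so the part of those reads in Prdx2 was not tested. Prdx6 (ENSMUSG00000026701), which has a single catalytic cysteine, is reduced with glutathione and also cleaves phospholipids, had 42.9, 39.3 and 43.2 FPKM in ultrasound libraries, against 39.95, 38.4 and 41.3 FPKM in LPS libraries. These overlapped too, with a difference of 0.07 ± 0.07 and a 95% interval of -0.10 to 0.23, which became 0.11 without ultrasound library 2, 0.04 without ultrasound library 3 and 0.04 without LPS library 2.

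Prdx3 (ENSMUSG00000024997), the peroxiredoxin of the mitochondrial matrix, had 55.2, 63.0 and 53.7 FPKM in ultrasound libraries, against 60.1, 59.0 and 59.1 FPKM in LPS libraries. The LPS libraries were nearly equal and lay inside the range of the ultrasound libraries, and the difference was -0.06 ± 0.08 (95% interval -0.24 to 0.13), which became -0.03, -0.12 and -0.01 without ultrasound library 1, 2 and 3. Prdx5 (ENSMUSG00000024953), an atypical 2-Cys enzyme of mitochondria, peroxisomes and cytosol, had 65.5, 97.1 and 71.6 FPKM in ultrasound libraries, against 72.3, 107 and 69.8 FPKM in LPS libraries. Its spread followed the library number, with library 2 far above the other two in both groups, and the group difference was -0.08 ± 0.20 (95% interval -0.56 to 0.39). Without LPS library 2 that difference turned to 0.11. Prdx5 shares 409 exonic bases with Trmt112 on the opposite strand, which had 44.0 ± 0.373 FPKM in ultrasound libraries and 42.3 ± 1.42 in LPS libraries.

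Summed over the 5 peroxiredoxin members, the level was 507, 679 and 521 FPKM in ultrasound libraries 1 to 3 and 421, 501 and 388 FPKM in LPS libraries 1 to 3. Every ultrasound library held a higher sum than every LPS library. Prdx1 made up 62.6 ± 2.81% of the sum in ultrasound libraries and 50.8 ± 2.81% in LPS libraries. The ratio of Srxn1 to Prdx1 was 0.322, 0.241 and 0.293 in ultrasound libraries, against 0.138, 0.224 and 0.276 in LPS libraries, and these overlapped.

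**Figure D2:**
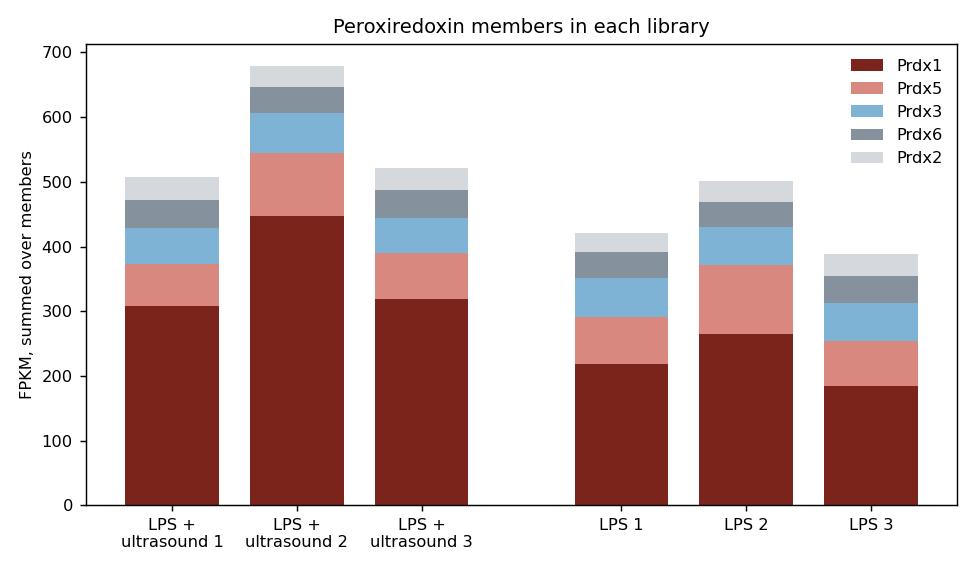
Summed FPKM of the 5 peroxiredoxin members in each library, 3 LPS plus ultrasound libraries on the left and 3 LPS libraries on the right, with 1 colour per gene. The Prdx1 segment is 308 to 447 FPKM with ultrasound and 185 to 265 FPKM with LPS, while the other segments are of similar height in both groups.

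Thioredoxin and its reductase in the cytosol were slightly higher with ultrasound in every library, while the groups overlapped for mitochondrial thioredoxin. Txn1 (ENSMUSG00000028367), the cytosolic thioredoxin, had 262, 267 and 256 FPKM in ultrasound libraries, against 225, 229 and 219 FPKM in LPS libraries. Both groups were tight, so that a small difference of 0.22 ± 0.06 (95% interval 0.08 to 0.37) left the groups 27.7 FPKM apart. It did not pass over all genes (limma, Benjamini-Hochberg adjusted p = 0.22, or 0.072 under the block). In the same-numbered pairs the difference was 0.21, 0.22 and 0.23. Its annotated copy Txn-ps1 stayed at or below 0.196 FPKM in all 6 libraries.

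Txnrd1 (ENSMUSG00000020250), the cytosolic selenoenzyme that recharges Txn1, had 77.8, 94.2 and 74.2 FPKM in ultrasound libraries, against 68.5, 70.2 and 53.9 FPKM in LPS libraries. The groups did not overlap, but the gap between them was smaller than the spread inside either group. The difference was 0.35 ± 0.13 with a 95% interval of 0.04 to 0.66 (limma, Benjamini-Hochberg adjusted p = 0.29, or 0.073 under the block), and without LPS library 3 it was 0.23. Txnrd1 has 8 annotated transcripts of 483 to 3622 bases, and the FPKM varies with how reads are split among them. The ratio of Txnrd1 to Txn1 overlapped between the groups, at 0.297, 0.352 and 0.289 in ultrasound libraries and 0.304, 0.307 and 0.246 in LPS libraries. Txn2 (ENSMUSG00000005354), the mitochondrial thioredoxin, was the least abundant member, with 11.5, 11.3 and 10.9 FPKM in ultrasound libraries, against 12.3, 12.1 and 10.8 FPKM in LPS libraries. The groups overlapped and the difference was -0.05 ± 0.08 (95% interval -0.24 to 0.14), with -0.02 when LPS library 1 was left out and -0.11 when LPS library 3 was.

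**Figure D3:**
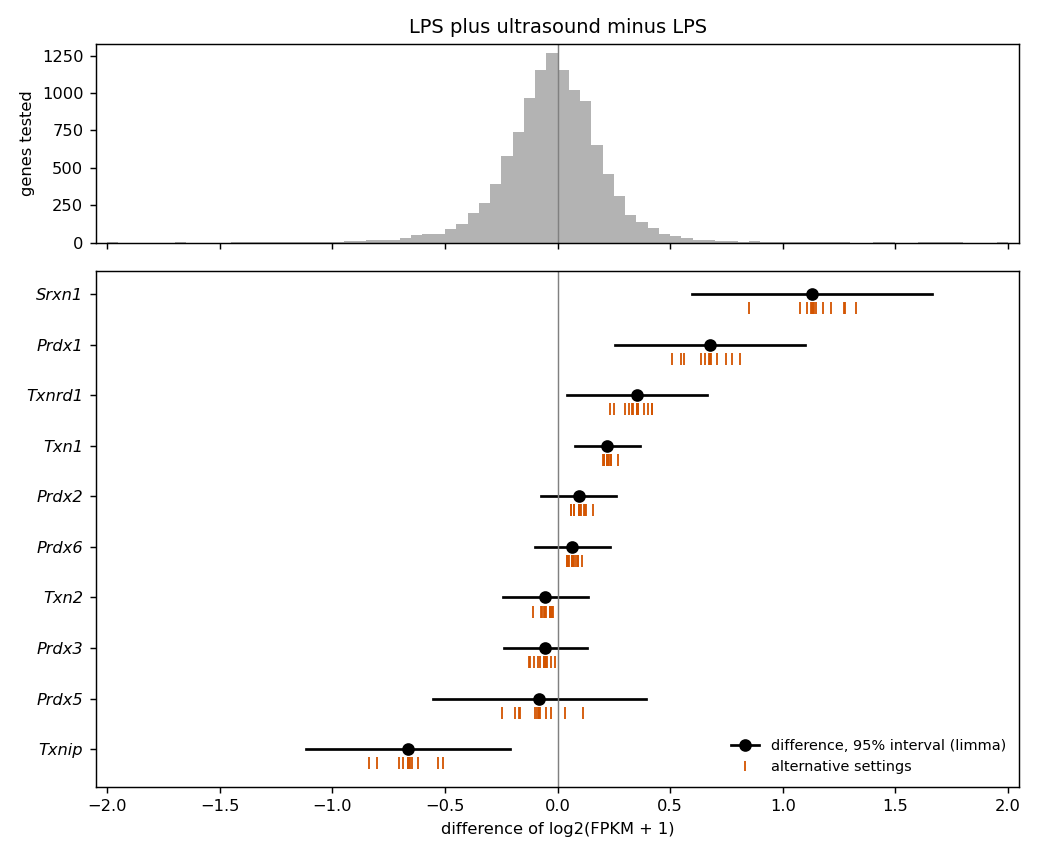
Below, for each member the LPS plus ultrasound minus LPS difference of log2(FPKM + 1), with its 95% limma interval (black) and the values under 17 alternative settings (orange ticks); above, the same difference over all 11270 genes tested, with values beyond the axis in the outermost bars. Srxn1 lies at 1.13 and Txnip at -0.66, at the edges of the histogram, and only the Prdx5 ticks cross 0.

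Txnip, the inhibitor of thioredoxin among the members, lay lower with ultrasound. Txnip (ENSMUSG00000038393) had 234, 306 and 194 FPKM in ultrasound libraries 1 to 3, against 385, 457 and 314 FPKM in LPS libraries 1 to 3. In both groups library 2 was the highest and library 3 the lowest, and the highest ultrasound library lay 8.62 FPKM under the lowest LPS library. The means were 244 ± 56.8 and 385 ± 71.5 FPKM, a difference of -0.66 ± 0.19 with a 95% interval of -1.12 to -0.21, and without LPS library 2 it was -0.53. It ranked 127 from the bottom among 11270 genes. Without a block it did not pass (limma, Benjamini-Hochberg adjusted p = 0.22). Between same-numbered libraries the difference was -0.72, -0.58 and -0.70. With the replicate number as a block Txnip passed (-0.66 ± 0.05, limma, Benjamini-Hochberg adjusted p = 0.047), 1 of the 9 genes (0.0799%) lower in that fit. The labels name no block, and this one was taken from titles and from these same data. The antisense gene Gm15441 overlaps 606 exonic bases of Txnip and stayed at or below 0.351 FPKM.

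**Figure D4:**
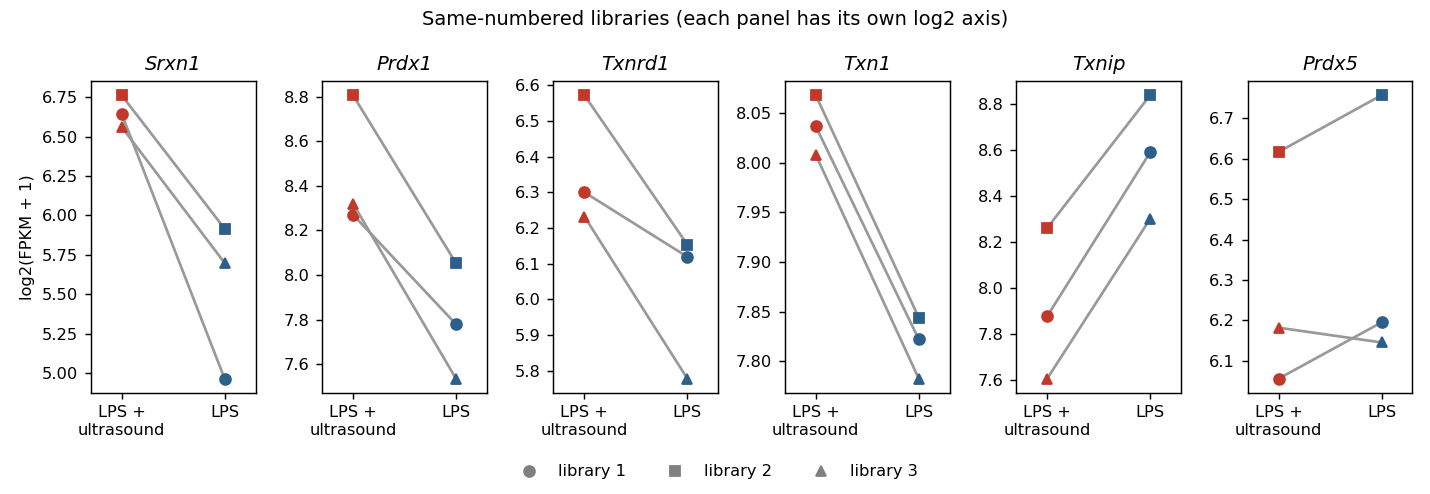
log2(FPKM + 1) of 6 members, LPS plus ultrasound (red, left) joined to LPS (blue, right) for libraries of the same number, each panel with its own axis. The Txnip lines are nearly parallel, with differences of -0.72, -0.58 and -0.70, the Srxn1 lines are not, at 1.68, 0.85 and 0.86, and the Prdx5 levels part by library number rather than by group.

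The ratio of Txnip to Txn1 FPKM was 0.894, 1.14 and 0.755 in ultrasound libraries, against 1.71, 2.00 and 1.44 in LPS libraries. Every ultrasound library had the lower ratio, which follows from the separate groups of Txnip and Txn1 given above and adds no further result. The order of the members by level differed accordingly. In ultrasound libraries the mean order was Prdx1, Txn1, Txnip, Srxn1, Txnrd1, Prdx5, Prdx3, Prdx6, Prdx2 and Txn2. Across these libraries the values of the neighbours Txn1 and Txnip, Srxn1 and Txnrd1, and Txnrd1 and Prdx5 overlapped. Within libraries Srxn1 was above Txnrd1 in 3 of 3. In LPS libraries it was Txnip, Txn1, Prdx1, Prdx5, Txnrd1, Prdx3, Srxn1, Prdx6, Prdx2 and Txn2. There the neighbours Txn1 and Prdx1 overlapped across libraries, as did each step from Prdx5 down to Prdx6, while within libraries Prdx5 was above Txnrd1 in 3 of 3. Txnip was first in 3 of 3 LPS libraries and Prdx1 in 3 of 3 ultrasound libraries, while Srxn1 was at place 4 in each ultrasound library and at places 6 to 8 in the LPS libraries.

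None of the relatives and regulators of Txnip passed the unweighted fit. Of 8 genes, the alpha-arrestins Arrdc1 to Arrdc5 and the glucose-sensing factors Mlxip, Mlxipl and Mlx, 5 had a mean of at least 1 FPKM, 1 was higher and 4 lower, with a median of -0.14. With limma 0 of the 5 passed and 1 had an unadjusted p below 0.05, against 15.3% of all genes. That gene was Arrdc2, with 4.01, 3.78 and 4.34 FPKM in ultrasound libraries, against 5.45, 6.52 and 7.38 FPKM in LPS libraries. Its groups did not overlap, and the difference of -0.56 ± 0.12 did not pass (limma, Benjamini-Hochberg adjusted p = 0.17). With array weights it did (-0.52, limma, Benjamini-Hochberg adjusted p = 0.046), in a fit that called 1.35% of all genes lower. Mlx, the DNA-binding partner of the glucose sensors, had a difference of -0.26 ± 0.16, and Arrdc1 of -0.14 ± 0.11.

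Other genes of the thioredoxin system lay on both sides in near equal numbers. Of 35 further genes (other reductases, Prdx4, thioredoxin-like and thioredoxin-domain proteins, glutaredoxins, sestrins, methionine sulfoxide reductases, ribonucleotide reductase subunits and the thioredoxin-bound kinase Map3k5), 31 were tested, 16 were higher and 15 lower, and the median difference was 0.00. With limma 0 passed, with or without the block or array weights. At an unadjusted limma p below 0.05 there were 2, both higher, against 15.3% of all genes (6.18% higher and 9.16% lower). These were Txndc5, an endoplasmic reticulum disulfide isomerase gene, and Msrb2, a mitochondrial methionine sulfoxide reductase gene. Txndc5 had 19.1, 31.0 and 35.2 FPKM in ultrasound libraries, against 17.4, 20.1 and 18.4 FPKM in LPS libraries (0.54 ± 0.21). Msrb2 had 4.62, 4.93 and 4.57 FPKM in ultrasound libraries, against 3.52, 3.04 and 4.46 FPKM in LPS libraries (0.30 ± 0.12). Groups did not overlap for 4 of the 31 in the higher direction, against 9.8% of all genes, and for 5 in the lower, against 13.4%. Msrb2 was among the 4, while for Txndc5 ultrasound library 1 lay inside the LPS range. Map3k5, also known as ASK1, which reduced thioredoxin holds inactive, had 2.86 ± 0.238 FPKM in ultrasound libraries and 3.69 ± 0.636 in LPS libraries (-0.27 ± 0.12). It was among the 5 whose groups did not overlap in the lower direction.

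Of 28 other NRF2 targets and regulators, 26 were tested, 23 were higher and 3 lower, with a median of 0.18, beside 46.1% higher and a median of -0.02 over all genes. With limma 0 passed, and 9 had an unadjusted p below 0.05, all 9 higher, against 6.18% of all genes. These 9 included the regulator Bach1 (0.38 ± 0.13). The regulators Nfe2l2 (0.05 ± 0.13) and Keap1 (0.05 ± 0.08) were among the 23 counted higher. With array weights 1, Pgd, passed, where 0.63% of all genes were called higher. Groups did not overlap for 9 of the 26 in the higher direction, against 9.8% of all genes, and for 0 in the lower, against 13.4%. This list, like the members and the other lists, was chosen with earlier results of these data known, so its shares test nothing. Hmox1, Gclm, Slc7a11 and Sqstm1 were among those that overlapped. Of the 3 lower, Sod2 had the largest difference, at -0.32 ± 0.16. The 2 genes not tested were Nqo1 and Gsta3. The 3 with the smallest p were Pgd, G6pdx and Taldo1. Pgd and G6pdx encode the NADPH-producing dehydrogenases of the pentose phosphate pathway. Pgd had 61.2, 77.3 and 58.8 FPKM in ultrasound libraries, against 44.1, 40.9 and 39.9 FPKM in LPS libraries. Taldo1, the transaldolase of the non-oxidative branch, had 117, 137 and 123 FPKM in ultrasound libraries, against 104, 101 and 88.3 FPKM in LPS libraries. The groups of both, and of G6pdx (0.30 ± 0.07), did not overlap. Tkt, the transketolase of the same pathway, chosen after its values were seen, had 50.1 ± 3.25 FPKM in ultrasound libraries and 49.3 ± 1.62 in LPS libraries (0.02 ± 0.07).

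The genes whose levels followed Srxn1 most closely over the 6 libraries were Pfn1, Serf2 and H6pd, with Pearson correlations of log2(FPKM + 1) of 0.976, 0.975 and 0.973 among 6662 genes. Their own differences were small, at 0.12, 0.12 and 0.07. Those closest to Txnip were Fam50a, Ccdc66 and Vps16, at 0.998, 0.998 and 0.996, with differences of -0.25, -0.31 and -0.39. These values describe likeness over 6 libraries that differ by group and number, and they were picked as the highest among all genes compared.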

How the data were processed

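Poly(A) RNA of 6 RAW264.7 libraries was sequenced as paired ends, per the labels' protocols. The authors deposited FPKM values, per the file name and values. Which aligner, quantifier, annotation and mouse build they used is not given in the sources used here. A rat build, mRatBN7.2, stands in the submitters' processing notes, yet all identifiers are mouse Ensembl ones. Columns were matched to samples by the initial and number shared with the titles. No counts were given. Low values of genes with 1 transcript peaked at steps that would mean library sizes differing by a factor of 1.16, but 28.5% to 30.5% of them lay within 0.05 of a whole step, so reads were not recovered and the depth is unknown. FPKM sums were 278871 to 292200. In bulk RNA fewer cells with a transcript and less transcript per cell cannot be told apart.

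The 11270 genes averaging 1 FPKM or more were fitted on log2(FPKM + 1) with limma 3.58.1 (R 4.3.3), using trend and robust moderation, two-sided, Benjamini-Hochberg adjusted over all of them, threshold 0.05. Differences are LPS plus ultrasound minus LPS on that scale, ± standard error, which understates low genes. The fit was also run on simulated data with independent libraries. Those had no correlation by library number and no library standing apart, so that run does not check the fit for either. The main fit held no block, as the labels name none. Deviations of same-numbered libraries from their group means correlated at 0.18, 0.44 and 0.41 across genes. Libraries of 1 number were therefore also compared as pairs, from titles and from these same data. Fits with the replicate number as a block are given beside the main fit. Alternatives were the pseudocount, filter, scaling, moderation, array weights, block and left-out libraries.

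The rule for named genes took the 10 members, the 3 smallest p of each further list and the highest marker of a cell type. It also took the 3 genes most correlated with Srxn1 and with Txnip at a mean of at least 5 FPKM. Bach1, Nfe2l2, Keap1, Hmox1, Gclm, Slc7a11, Sqstm1, Sod2 and Tkt were named outside this rule, as were the markers Adgre1, Itgam and Csf1r. Members and lists were chosen with earlier results of these data known. Copies were found with BLAST 2.17.0 (95% identity over 100 bases) in GENCODE M21 transcripts.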

Additional observations from a re-analysis of the deposited data

How the results depend on the processing

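The signs of 9 members held under 17 of 17 alternatives. Prdx5 turned to 0.03 without LPS plus ultrasound library 1 and to 0.11 without LPS library 2. The count of members past the threshold, 0, became 1 with array weights (Srxn1) and 1 with the replicate block (Txnip), and stayed 0 otherwise. With the block the lowest adjusted limma p among the other members was 0.058. The median of the members moved to 0.12 with array weights. Of all genes, 2 passed. This became 5 with equal FPKM sums, 223 with array weights, 13 with the replicate block, 6 without both libraries numbered 2, and, leaving out 1 library, 8 without LPS library 2, 4 without LPS library 1 or 3 and 2 without each ultrasound library in turn. With array weights 1 Txnip relative (Arrdc2) and 1 other NRF2 target (Pgd) passed. Groups did not overlap for 5 members, for the same 5 without LPS library 2 (12.3% of all genes higher, 17.2% lower) and for 8 without both libraries numbered 2 (20% and 28.5%), settings chosen after seeing the data. The cause of these shifts was not tested. Leave-one-out differences ran from 0.85 to 1.32 for Srxn1, 0.51 to 0.81 for Prdx1, 0.23 to 0.42 for Txnrd1, -0.84 to -0.51 for Txnip, -0.25 to 0.11 for Prdx5, -0.12 to -0.01 for Prdx3, -0.11 to -0.02 for Txn2, 0.06 to 0.13 for Prdx2, 0.04 to 0.11 for Prdx6 and 0.20 to 0.24 for Txn1. No scaling moved the median of all genes by more than 0.02. With 3 libraries per group an exact permutation test of 1 gene cannot go below 0.1.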
